A study of Mus musculus with 6 samples.

Results

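The receptors for interleukin-3, interleukin-4, interleukin-5 and interleukin-9 were followed through 10 genes that encode their chains: Csf2rb, Csf2rb2, Csf2ra, Il3ra, Il5ra, Il4ra, Il2rg, Il13ra1, Il9r and Il2ra. They were chosen by symbol, and all 10 were found among the 17890 genes of the deposited table. RNA had been sequenced from mouse mast cells of uninvolved lymph nodes (uLN, 3 libraries) and of lymph nodes with tumour metastasis (mLN, 3 libraries). The mouse strain, age, tumour, any treatment and the method of isolation were not stated in the labels. Nothing in the labels says that the 3 libraries of a group came from separate animals, so a p-value here sets the groups' difference against a spread that may be technical. The single comparison, mLN against uLN, asks how the mast cell transcriptome differs in a node that a tumour has reached.

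These cytokine receptors are built from a few shared chains and several private ones. A beta chain, encoded by Csf2rb, signals for interleukin-3, interleukin-5 and granulocyte-macrophage colony-stimulating factor (GM-CSF), each of which is first bound by an alpha chain of its own. Mice carry a further copy, Csf2rb2, whose product serves interleukin-3. The gamma chain encoded by Il2rg serves interleukin-4, interleukin-9 and interleukin-2, and the chain encoded by Il4ra can pair with that gamma chain or with the product of Il13ra1. The beta chains bind the kinase JAK2 and the gamma chain binds JAK3, and the receptors pass their signal to STAT5 or, for interleukin-4, STAT6. Interleukin-3 is a classical growth and survival factor for mouse mast cells, and interleukin-4 and interleukin-9 act on them as well.

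The copies Csf2rb and Csf2rb2 lie head to head on chromosome 15 of GRCm38, with 20078 bases between them. Csf2rb runs on the plus strand from 78325800 to 78351001 and Csf2rb2 on the minus strand from 78282507 to 78305721. Their coding sequences in GENCODE M21 were identical at 95.2% of 2631 aligned positions, and 126 positions differed. Because short reads from such copies can fit both, a coding stretch of 90 bases is shown that holds the most differences found in any ungapped stretch of that length. Capitals mark the 16 bases that differ. The stretch lies at chr15:78338897-78338986 on the plus strand for Csf2rb and at chr15:78294345-78294434 on the minus strand for Csf2rb2.
Csf2rb: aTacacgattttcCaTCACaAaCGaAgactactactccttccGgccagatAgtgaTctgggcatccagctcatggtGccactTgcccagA
Csf2rb2: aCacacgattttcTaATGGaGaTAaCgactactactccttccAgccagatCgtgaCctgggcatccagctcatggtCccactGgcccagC
Elsewhere the copies are harder to tell apart, since the longest identical coding run is 242 bases. Of all stretches of 100 bases in the Csf2rb transcript, 6.96% occur unchanged in the Csf2rb2 transcript, and of all stretches of 50 bases 18.4% do. The deposited values of both genes were not whole numbers in any library, so the split of reads between the copies is an estimate, and their sum is given beside the separate values.

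The 6 libraries held 17643916 to 17799420 counts each. Levels are given as CPM, counts scaled to library size with TMM factors that correct for library composition, with the standard deviation over 3 libraries. Of 12 mast cell markers, all were above 1 CPM, and their sum was 41763 to 43574 CPM in uLN and 39854 to 42553 CPM in mLN. Within that near-equal sum 3 markers were called higher and 7 lower in mLN. Of all 12706 genes tested, 33.2% were called higher and 34.2% lower, so changes were common beyond the receptor chains. Kit, which binds stem cell factor, went down 2.47-fold, from 7756 ± 191 to 3139 ± 46.6 CPM (SD, n = 3), and Mrgprb2, a receptor for basic secretagogues, fell 1.81-fold. Fcer1a, the alpha chain of the IgE receptor, and the transcription factor Mitf fell by 0.59 and 0.58 on the log2 scale. The protease genes Tpsb2, Cma1 and Mcpt4 rose 2.06-fold, 2.01-fold and 4.03-fold. The part of these changes in those of the receptor chains was not tested. Markers of other cells were read for their defining genes. The T cell genes Cd3d and Cd3g had 0 to 8 reads per library, the eosinophil genes Prg2 and Epx 0 or 1, and 0 of the 7 neutrophil genes exceeded 1 CPM. Krt5, a keratinocyte keratin, had 2101 reads in mLN replicate 1 against 76 to 448 in the other libraries. The stromal genes Dcn, with 591 reads against 9 to 61, Col1a1, with 761 against 34 to 252, and Col1a2, with 536 against 19 to 109, were highest in that library too. Of 7 tested genes of keratinocytes, stroma and endothelium, 5 were called higher and 1 lower, beside 33.2% and 34.2% of all tested genes. The median log2 change of the 7 was 2.43, and the mLN libraries differed widely. Krt5 had 215 reads in mLN replicate 2 and 448 in mLN replicate 3, against 76 to 206 in uLN. Dcn had 20 and 61 there, against 9 to 27 in uLN. Counts of mLN replicate 3 stood further from the other mLN libraries (mean chi-square per gene of 11.1 and 11.4) than those did from each other (3.77). In such bulk samples, fewer cells of a type and less RNA per cell cannot be told apart.

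**Figure D1:**
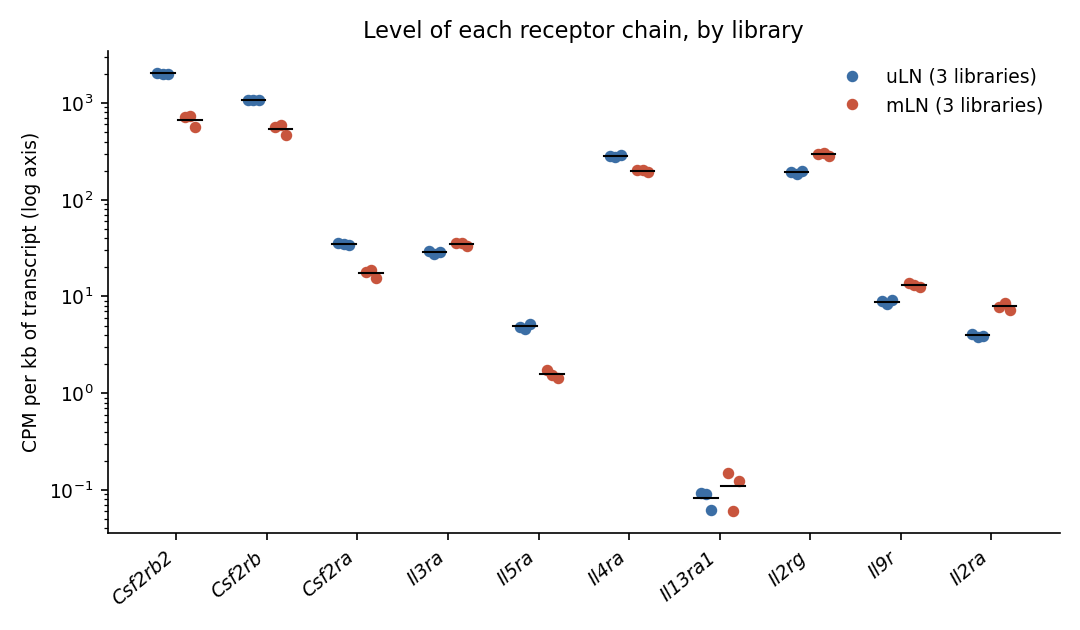
Level of each receptor chain in every library, in CPM per kilobase of the longest protein-coding transcript on a log axis. Points are libraries and bars are means of 3. The beta chain genes Csf2rb2 and Csf2rb stand highest in both groups, and Il13ra1 lies near 0.1 CPM per kb in both.

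The receptor chains split by direction. Csf2rb2, Csf2rb, Csf2ra, Il5ra and Il4ra were lower in mLN, while Il2rg, Il9r, Il2ra and Il3ra were higher. All 9 chains that could be tested were called by edgeR's quasi-likelihood test at a Benjamini-Hochberg adjusted p under 0.05, 4 higher and 5 lower. The same test called 67.4% of the 12706 genes tested, 33.2% as higher and 34.2% as lower, so a call by itself was common in these data. Of the 9, 2 chains changed by at least 2-fold, Il5ra and Csf2rb2, and 15.9% of all tested genes did so. Il2ra, Csf2ra and Csf2rb lay just under that line, at log2 changes of 0.998, -0.992 and -0.985, so the count depends on the settings. Il2ra passed the line with other scaling (1.01 to 1.03), and Csf2ra (-1.02) and Csf2rb (-1.01) passed it with no expression filter. Single libraries moved it too. Without mLN replicate 2, Csf2ra was at -1.05, Csf2rb at -1.06 and Il2ra at 0.93. Without mLN replicate 3 they were at -0.91, -0.89 and 1.06. The CPM ranges of the groups did not overlap for any of the 9 chains, as for 72.9% of all tested genes. The median log2 fold change was -0.50 over the chains and -0.0064 over all tested genes. Il13ra1 did not pass the filter on low counts and was not tested.

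**Figure D2:**
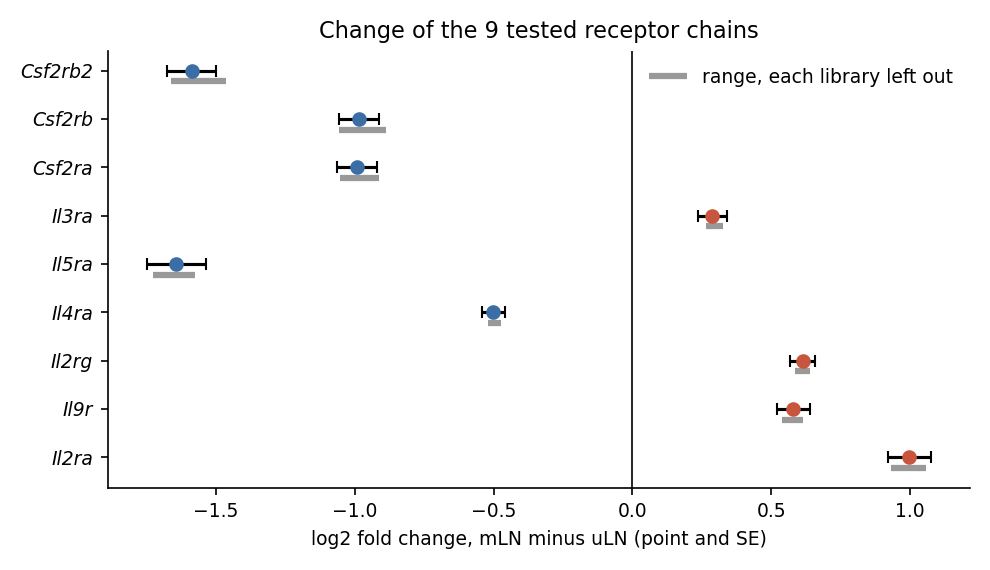
Log2 fold change of the 9 tested chains, mLN minus uLN, with the standard error, and in grey the range when each library in turn is left out. The 5 points left of 0 run from -1.64 for Il5ra to -0.50 for Il4ra, and the 4 points right of 0 from 0.29 for Il3ra to 0.998 for Il2ra.

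The beta chain genes were among the most abundant transcripts of these cells and both fell. Csf2rb2, the copy that serves interleukin-3, was at 9766, 9501 and 9561 CPM in the uLN libraries and at 3432, 3504 and 2650 CPM in mLN replicates 1, 2 and 3. Every mLN library lay far under every uLN library, and mLN replicate 3 was the lowest. The fall was 3.01-fold, a log2 change of -1.59 ± 0.089 (SE, adjusted p = 1.59e-07 in edgeR's quasi-likelihood test). Csf2rb, the beta chain shared by interleukin-3, interleukin-5 and GM-CSF, was at 5299, 5208 and 5221 CPM in uLN and at 2745, 2900 and 2300 CPM in mLN. The uLN values lay close together, with a coefficient of variation of 0.943%, and the mLN values spread more, at 11.8%. Csf2rb fell 1.98-fold, a log2 change of -0.99 ± 0.072 (SE, edgeR adjusted p = 1.01e-06).

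Together the copies took 1.45% to 1.49% of all counts in the uLN libraries and 0.489% to 0.649% in the mLN libraries. Tested as 1 summed gene, the pair fell 2.54-fold, a log2 change of -1.35 ± 0.081 (SE, edgeR adjusted p = 2.46e-07). This sum does not depend on how reads were shared between the copies themselves. The makeup of the pair also differed. Csf2rb2 held 64.8%, 64.6% and 64.7% of the pair's reads in uLN and 55.6%, 54.7% and 53.5% in mLN, groups that did not overlap. The log2 ratio of Csf2rb2 to Csf2rb reads was lower by 0.61 in mLN (log2 change of -0.61). In an exact two-sided permutation test over the libraries p was 0.1, the smallest value that 3 against 3 libraries allow. By level per kilobase of transcript, Csf2rb2 ranked 10 among the 17150 genes with a known transcript length in uLN and 42 in mLN, and Csf2rb ranked 23 and 59.

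**Figure D3:**
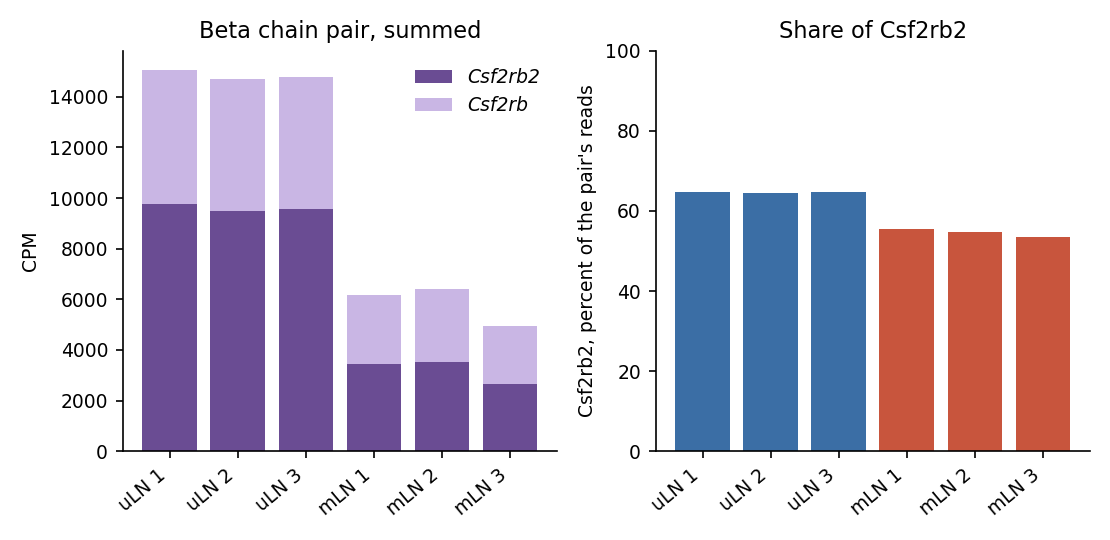
Left, CPM of Csf2rb2 and Csf2rb stacked for each library, and right, the percentage of the pair's reads that belong to Csf2rb2, coloured by group. The summed level runs from 14708 to 15066 CPM in uLN and from 4950 to 6404 CPM in mLN, and the share of Csf2rb2 is lower in each mLN library.

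The 3 alpha chains that work with these beta chains did not move together. Csf2ra, which binds GM-CSF, was at 66.0, 64.1 and 63.6 CPM in uLN and at 33.4, 35.0 and 28.9 CPM in mLN. It fell 1.99-fold, a log2 change of -0.99 ± 0.071 (SE, edgeR adjusted p = 8.42e-07). Its pattern over the 6 libraries was close to that of Csf2rb, the partner with which it forms the GM-CSF receptor. On centred log2 CPM the root mean square difference between these genes was 0.020, the smallest among the 36 pairs of tested chains. Both genes had a log2 change of -0.99, and with 2 groups such likeness reflects mainly a similar size of change. For Csf2ra it was not ranked against genes outside these chains.

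Il5ra, which binds interleukin-5 and is best known from eosinophils, was at 17.3, 16.5 and 18.7 CPM in uLN and at 6.24, 5.46 and 5.11 CPM in mLN. The groups were well apart, and the fall was 3.12-fold (log2 change of -1.64 ± 0.106, SE, edgeR adjusted p = 4.05e-07). It was within its error of the fall of Csf2rb2, and without mLN replicate 2 the order of these genes turned, at -1.63 for Il5ra and -1.66 for Csf2rb2. The eosinophil granule genes Prg2 and Epx were at or near 0 in both groups, as given above. The summed basophil and eosinophil markers, of which 8 were measured, were at 334 to 349 CPM in uLN and 527 to 566 CPM in mLN, and so were higher where Il5ra was lower. Most of that sum was Cd200r3, with 5497 to 5645 reads in uLN and 8197 to 9013 in mLN. The basophil protease Mcpt8 had 12 to 26 reads per library and was not called. The other 4 of the 5 tested markers of that list were called higher, Cd200r3, Siglecf, Ccr3 and Prss34, beside 33.2% of all tested genes. Siglecf rose 4.56-fold, from 14 to 20 reads in uLN to 61 to 86 in mLN. Ccr3 rose 2.30-fold, from 244 to 278 reads to 500 to 683, and Prss34 2.86-fold, from 115 to 157 reads to 390 to 413. The part of such cells in the level of Il5ra was not tested.

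Over all tested genes, those with the pattern most like that of Il5ra were the predicted gene Gm46272, Eps8l1 and Fastkd2. Their root mean square differences from it were 0.057, 0.069 and 0.070 in centred log2(CPM + 0.5) over 6 libraries. Eps8l1 had 1174 to 1236 reads in uLN and 331 to 469 in mLN, a log2 change of -1.59. With 2 groups of 3 libraries, such likeness reflects mainly a similar size of change.

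Il3ra, the alpha chain for interleukin-3, went the other way. It was at 69.0, 63.8 and 66.0 CPM in uLN and at 83.0, 82.7 and 77.1 CPM in mLN, ranges that lay apart by more than the spread within each. The rise was the smallest of the changes, 1.22-fold (log2 change of 0.29 ± 0.053, SE, edgeR adjusted p = 6.95e-04). The proportion of Il3ra to the beta chains differed accordingly. There were 0.434 to 0.458 Il3ra reads per 100 reads of the beta pair in uLN and 1.29 to 1.56 in mLN, a change of 1.64 in the log2 ratio. For Csf2ra the ratio to the beta pair differed less, at 0.430 to 0.438 per 100 in uLN and 0.541 to 0.583 in mLN. For Il5ra it was 0.112 to 0.127 per 100 in uLN and 0.0853 to 0.103 in mLN. None of these ratios overlapped between the groups, and each had p = 0.1 in the exact permutation test, the smallest possible, or 0.133 after Benjamini-Hochberg adjustment over the 8 ratios computed. These ratios compare reads without scaling for transcript length and serve only to show a change between groups.

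**Figure D4:**
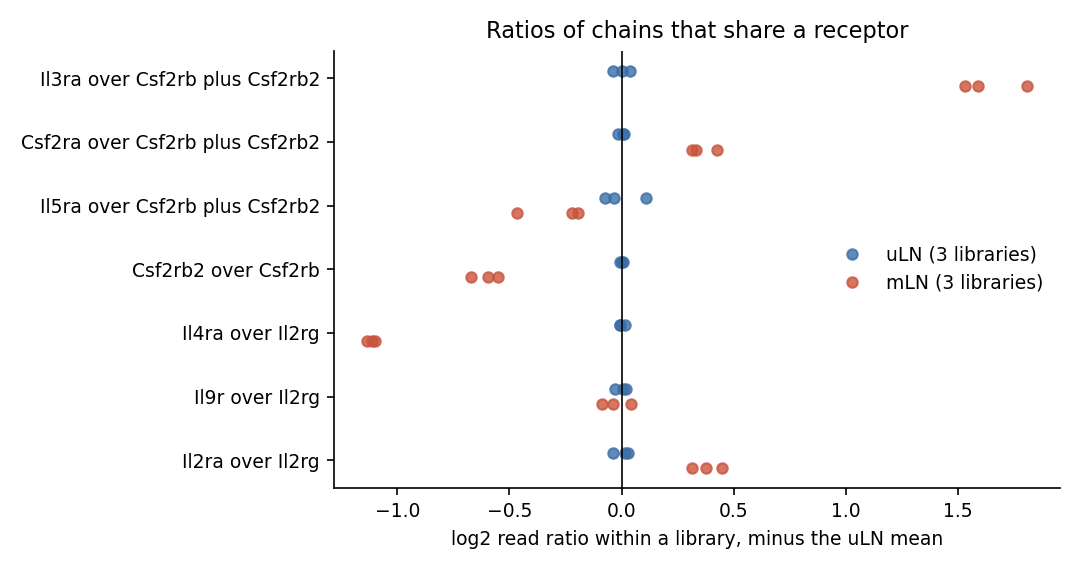
Log2 ratio of the reads of 2 chains within each library, minus the mean of the uLN libraries. Points are libraries. The ratio of Il3ra to the beta pair moved furthest, by 1.64, the ratio of Il4ra to Il2rg moved by -1.12, and the points of Il9r over Il2rg overlap between the groups. The ratio to Il13ra1 is left out because that gene had 4 to 10 reads per library.

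The chains of the interleukin-4 receptor moved in opposite directions. Il4ra, the chain that binds interleukin-4, was at 1494, 1443 and 1516 CPM in uLN and at 1059, 1072 and 1014 CPM in mLN. It fell 1.42-fold with little spread in either group, a log2 change of -0.50 ± 0.041 (SE, edgeR adjusted p = 2.30e-06). Il2rg, the gamma chain, was at 326, 309.8 and 331 CPM in uLN and at 491, 511 and 477 CPM in mLN. Each mLN library lay above each uLN library, and the rise was 1.53-fold (log2 change of 0.61 ± 0.046, SE, edgeR adjusted p = 1.07e-06). Within a library there were 4.58 to 4.66 Il4ra reads per Il2rg read in uLN and 2.10 to 2.15 in mLN. The ratio thus fell 2.17-fold with no overlap (exact permutation p = 0.1, adjusted p = 0.133). Per kilobase of transcript, Il4ra stood above Il2rg in uLN, at 282 ± 7.09 against 193 ± 6.58 CPM per kb (SD, n = 3). In mLN the order was reversed, at 199 ± 5.80 for Il4ra against 295 ± 10.2 CPM per kb for Il2rg (SD, n = 3).

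Il13ra1, the chain that lets Il4ra form a receptor for interleukin-13, was hardly detected. It had 6, 6 and 4 reads in uLN and 10, 4 and 8 in mLN. The ratio of the summed reads was 1.38, with a 95% exact interval from 0.690 to 2.80 that covers counting error only, so a difference was not detectable at this depth.

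Il9r and Il2ra, which also work with the gamma chain, both rose. Il9r, which binds interleukin-9, was at 40.6, 37.1 and 40.8 CPM in uLN and at 61.7, 58.9 and 56.6 CPM in mLN. The rise was 1.496-fold (log2 change of 0.58 ± 0.060, SE, edgeR adjusted p = 1.18e-05), close to that of Il2rg. The ratio of Il9r to Il2rg reads was 0.120 to 0.124 in uLN and 0.115 to 0.126 in mLN, which overlapped (log2 change of -0.03, exact permutation p = 0.5). Il2ra, which also marks activated and regulatory T cells, encodes the alpha chain of the high-affinity interleukin-2 receptor. Il2rb, another chain of that receptor, did not pass the filter on low counts and was not tested. Il2ra was at 18.0, 16.9 and 17.4 CPM in uLN and at 34.5, 37.7 and 32.1 CPM in mLN. It rose 1.997-fold, a log2 change of 0.998 ± 0.077 (SE, edgeR adjusted p = 1.39e-06). Its ratio to Il2rg rose from 5.26 to 5.51 per 100 in uLN to 6.73 to 7.38 in mLN (exact permutation p = 0.1). Summed T cell and innate lymphoid markers, of which 10 were measured, were also higher in mLN, at 79.8 to 87.8 CPM against 66.0 to 67.2. Of these, Il7r and Gata3 made up most reads. Il7r had 625 to 653 reads in uLN and 910 to 990 in mLN, and the rise of the sum lay mostly in it. Gata3 had 400 to 436 reads in uLN and 422 to 499 in mLN and was not called. The T cell markers Cd3d and Cd3g were at or near 0 as given above, and Cd4 fell from 31 to 39 reads to 7 to 13. Foxp3, a marker of regulatory T cells, had 27 to 32 reads in uLN and 33 to 42 in mLN and was not called. Cd8a had 44 to 45 reads in uLN and 28 to 40 in mLN and was not called either. Lck and Zap70, which were not tested, each had 0 to 2 reads in uLN and 4 to 8 in mLN. Of 5 tested markers of that list, 1 was called higher and 1 lower, beside 33.2% and 34.2% of all tested genes. The part of such cells in the rise of Il2ra and Il2rg was not tested.

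In level per kilobase of transcript, the order in uLN was Csf2rb2, Csf2rb, Il4ra, Il2rg, Csf2ra, Il3ra, Il9r, Il5ra, Il2ra and Il13ra1, and the library ranges of neighbours did not overlap. In mLN the order was Csf2rb2, Csf2rb, Il2rg, Il4ra, Il3ra, Csf2ra, Il9r, Il2ra, Il5ra and Il13ra1. There the ranges of Csf2rb2 and Csf2rb overlapped, at 559 to 739 and 469 to 592 CPM per kb over the 3 libraries, while the other neighbours stayed apart. Between the groups, Il4ra had changed places with Il2rg, Csf2ra with Il3ra, and Il5ra with Il2ra.

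Each of the 9 tested chains was lower in mLN replicate 3 than the mean of mLN replicates 1 and 2, with differences from -4.81% for Il2rg to -23.6% for Csf2rb2. Over all tested genes the median of that difference was -0.931%, and the middle 90% ran from -35.2% to 28.5%. Without mLN replicate 3 all 9 chains were still called, and Csf2rb2 had a log2 change of -1.47 and Csf2rb of -0.89. Without mLN replicate 1, the library with most Krt5, the 9 were called as well.

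Upstream sequence was read for chains with the largest falls, since binding sites for STAT and GATA factors could be looked for there. RefSeq windows of GRCm38.p6, from 250 bases before to 50 after a transcription start, were found for 9 of the 10 genes. Searched on both strands were TTCNNNGAA, the usual STAT element, its STAT6 form, in which the spacer is 1 base longer, and AGATAA and TGATAA, forms of the GATA element. Of 32851 windows in all, 8.30% held TTCNNNGAA, 6.95% the STAT6 form, 11.2% AGATAA and 9.05% TGATAA. Among the 9 windows, TTCNNNGAA and TGATAA were each found in 1, that of Csf2rb2. The STAT6 form was found in 1, that of Il5ra, where it begins at base 28 after the transcription start and so is not upstream. AGATAA was found in 2, those of Il5ra and Il9r. The matches did not overlap. Shown are the upstream stretches of Csf2rb2 (chr15:78305722-78305789, minus strand) and Il5ra (chr6:106749076-106749141, minus strand), with motif matches in capitals.
Csf2rb2: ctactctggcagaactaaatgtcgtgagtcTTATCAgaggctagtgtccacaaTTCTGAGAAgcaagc
Il5ra: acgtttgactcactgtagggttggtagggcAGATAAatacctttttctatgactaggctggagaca
The Csf2rb2 stretch ends at the base before the start, with the TGATAA match (on the opposite strand) beginning 38 bases before it and the TTCNNNGAA match 15 bases before it. The AGATAA match of Il5ra begins 74 bases before its start. These are letter matches, and no binding was measured.

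Of the cytokines that these receptors bind, few reads were found in the mast cell libraries, except of Il15. Among 10 ligand genes measured, 3 passed the filter and 0 were called by edgeR, nor was any of the 3 at an unadjusted p under 0.05. Il4 had 58 to 72 reads in uLN and 54 to 66 in mLN, and Il13 had 26 to 28 and 26 to 36. Il15, whose receptor also uses the gamma chain, was at 52.2 ± 1.68 CPM in uLN and 51.4 ± 6.10 CPM in mLN (SD, n = 3). Among those under the filter, Il9 had 0 reads in each uLN library and 6, 12 and 10 in the mLN libraries. Against a floor of 3 reads per uLN library, this is at least 3.06-fold higher. Csf2, which encodes GM-CSF, had 1 read in each uLN library and 7, 6 and 8 in mLN, a ratio of 7 with a 95% exact interval from 2.09 to 36.7 that covers counting error only. With no expression filter edgeR called both as higher (adjusted p = 9.20e-04 for Il9 and 0.00915 for Csf2), and so did DESeq2 (adjusted p = 4.51e-04 and 0.0437). Il3 was not analysed here. Il5 had 7 reads in all in uLN and 1 in mLN, and Il2 had 0 or 1 per library.

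The kinases and STAT factors of the pathway changed by small amounts. Of 11 tested, 4 were called higher and 3 lower, with a median log2 change of 0.03. In this and the following lists, the counts stand beside 33.2% of all tested genes called higher and 34.2% called lower, and the difference of a list from all genes was not tested. Without mLN replicate 3 the number called lower was 5. Jak3, the kinase bound by the gamma chain, rose 1.55-fold from 62.0 ± 2.01 to 95.9 ± 3.89 CPM (SD, n = 3, edgeR adjusted p = 2.22e-06). Jak2, the kinase bound by the beta chains, fell 1.31-fold from 367 ± 4.37 to 281 ± 21.5 CPM (SD, n = 3, edgeR adjusted p = 1.20e-04). Each kinase thus moved in the direction of the shared chain it binds. Jak1 was at 534 ± 9.62 and 546 ± 21.9 CPM (SD, n = 3) and was not called, while Tyk2 rose 1.26-fold. Stat6, which acts under interleukin-4, fell 1.26-fold from 251 ± 2.80 to 199 ± 13.3 CPM (SD, n = 3). Stat5a and Stat5b, which act under interleukin-3, were not called, at log2 changes of -0.07 and 0.11. Stat2 fell 1.48-fold and Stat4 rose 1.36-fold. Stat3 rose 1.09-fold (adjusted p = 0.0215), a call that was lost without uLN replicate 1 (adjusted p = 0.0871), without uLN replicate 3 (0.0738) and with no expression filter (0.0805).

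Adaptors and lipid kinases that link these receptors to RAS and PI3-kinase were called lower in 9 of 17 tested and higher in 5, with a median log2 change of -0.13 beside -0.0064 over all tested genes. Cbl, a ubiquitin ligase that marks active receptors for breakdown, rose 2.18-fold. Hras fell 1.57-fold and Pik3cg, the gamma catalytic subunit of PI3-kinase, fell 1.31-fold. Of the inhibitors 5 of 17 rose and 8 fell, with a median of -0.06, beside 33.2% and 34.2% of all tested genes. Socs3, a feedback inhibitor of JAK kinases, went from 7.29 ± 1.80 CPM to 40.4 ± 2.05 CPM (SD, n = 3), a rise of 5.54-fold. The phosphatase genes Ptpn6 (SHP-1) and Inpp5d (SHIP-1), both brakes on mast cell signalling, fell 1.59-fold and 1.47-fold, and Pias3 fell 1.81-fold.

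Of genes known as STAT5 targets 10 of 15 tested were called higher in mLN and 3 lower, with a median log2 change of 0.29, beside 33.2% and 34.2% of all tested genes. The number called higher was 7 without uLN replicate 1 and 7 without mLN replicate 2. Pim2 and Pim1, survival kinases, rose 2.45-fold and by 0.59 on the log2 scale. Cish, a feedback inhibitor, rose 1.55-fold and the cyclin Ccnd2 1.37-fold. Cish and Socs2 are also among the inhibitors. These genes respond to other signals as well, and the list mixes targets described in several cell types. Of STAT6 targets 6 of 10 tested rose and 3 fell, with a median of 0.88, also when Ccl22, which had 0 reads in uLN, is set to its lower bound of 43.0-fold. Over all tested genes 33.2% rose and 34.2% fell. Called lower were Pparg (under 1 CPM in both groups), Mrc1 and Myb, at log2 changes of -1.45, -0.68 and -0.64. The number called lower was 1 in DESeq2, without uLN replicate 2 and without mLN replicate 2. Tgm2, a transglutaminase, went from 47.3 ± 1.35 CPM to 239.8 ± 17.2 CPM (SD, n = 3), a rise of 5.07-fold. Pdcd1lg2, which encodes the checkpoint ligand PD-L2, rose 2.36-fold and Socs1, which curbs interleukin-4 signalling, rose 1.93-fold. Arg1, arginase 1, had 4, 1 and 3 reads in uLN and 96, 92 and 90 in mLN, a rise of 32.6-fold. Markers of macrophages, in which Arg1 is also a STAT6 target, and of dendritic cells moved both ways. Of 9 tested, 3 were called higher and 4 lower, beside 33.2% and 34.2% of all tested genes. Mrc1, among those lower, is also in the STAT6 list. The sum of these macrophage and dendritic markers was 133 to 181 CPM in uLN and 226 to 257 CPM in mLN. Higher were Cd68, from a mean of 24.9 to 90.2 CPM, Adgre1, from 26.8 to 61.1, and Itgax, from 7.17 to 13.2. Called lower were Csf1r, C1qb, Mrc1 and Lyz2, with Csf1r from 8.38 to 4.23 CPM and Lyz2 from 82.8 to 61.7 CPM. The part of such cells in the STAT6 list was not tested.

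Among 19 other cytokine receptor chains 14 were tested, of which 6 rose and 2 fell, with a median log2 change of 0.32. Over all tested genes 67.4% were called, 33.2% as higher and 34.2% as lower. Epor, the erythropoietin receptor, rose 4.46-fold from 1.24 ± 0.334 to 5.53 ± 0.956 CPM (SD, n = 3). Il7r, which pairs with the gamma chain for interleukin-7, rose 1.45-fold from 36.4 ± 1.08 to 52.7 ± 2.66 CPM (SD, n = 3), as did Ifnar2. Crlf2, which joins Il7r in the receptor for thymic stromal lymphopoietin, fell 1.54-fold from 136 ± 2.24 to 88.5 ± 7.04 CPM (SD, n = 3, edgeR adjusted p = 6.34e-06). In that receptor, too, the chains moved in opposite directions.

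**Figure D5:**
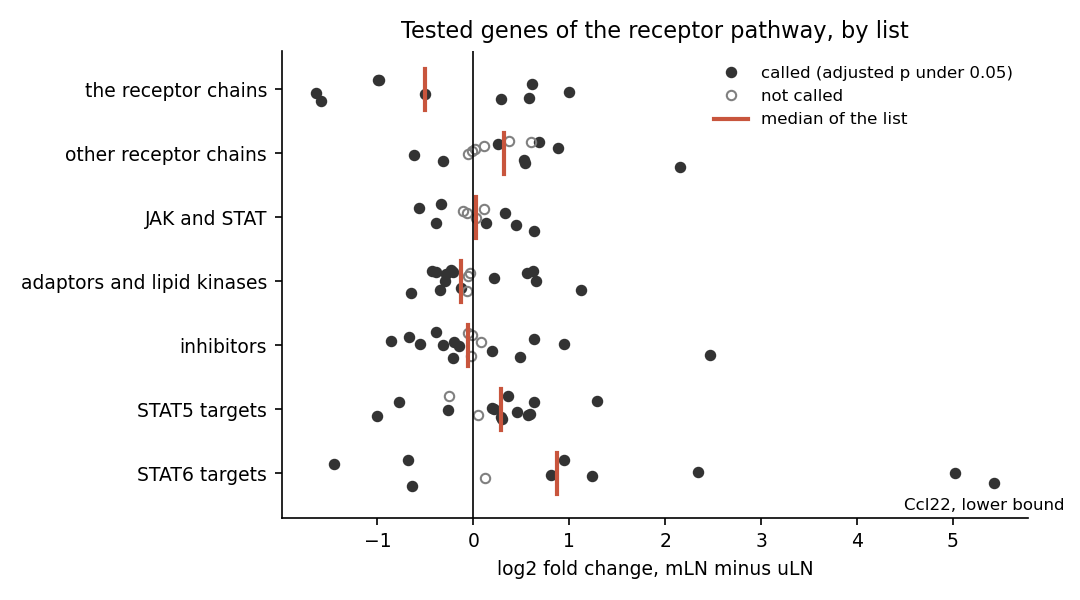
Log2 fold change, mLN minus uLN, of the tested genes of each list. Filled points were called, open points were not, and the red line is the list median. Medians run from -0.50 for the receptor chains to 0.88 for STAT6 targets, and Ccl22 is drawn at its lower bound.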

How the data were processed

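The deposited table holds estimated counts for each gene, unscaled as far as the labels say. The build was GRCm38 and the tools TopHat, cutadapt and FastQC, per the submitters' processing notes. Neither the counting tool nor its use of strand nor the read length is stated there. In each library 32.2% to 32.8% of values were not whole, including those of 6 receptor genes, and expected counts were rounded for the tests. One blank row was left out, and 26 symbols turned into dates were restored by gene ID. Mean chi-square per gene between libraries of a group was 2.06 to 11.4, where counting error gives 1. Every library was kept, mLN replicate 3 included, and each was left out in turn as an alternative.

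edgeR 4.0.16 (R 4.3.3) was fitted to all 12706 genes that passed filterByExpr, with TMM factors. SE is the log2 fold change over the root of F. Alternatives used limma 3.58.1 and DESeq2 1.42.0, other scaling, no filter, unrounded counts, a robust fit, a replicate block and each library left out. The edgeR script was tested on simulated data. Transcript lengths are those of the longest protein-coding GENCODE M21 transcript. Coding sequences were aligned globally with Biopython 1.88. Read ratios were compared by an exact permutation test.

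The receptor genes and all gene lists were chosen with earlier results of these data known. Named from a list were up to 4 called genes of at least 1 CPM with the smallest adjusted p, or all of a list of at most 11 genes, and the 3 genes most like the chain that changed most. STAT5 and STAT6 targets called lower were named as well. Markers of mast cells, stroma, T cells, basophils, eosinophils, macrophages and dendritic cells named with values were chosen after their values were seen. Of the genes this rule takes, some are not reported here. Receptor proteins were not analysed here.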

Additional observations from a re-analysis of the deposited data

How the results depend on the processing

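The 9 tested receptor chains kept their direction and their call under all 15 alternatives, 135 of 135 values, as did the number called. The largest adjusted p was 0.00644, for Il3ra without uLN replicate 2, and the log2 change ranged from -1.66 to -1.47 for Csf2rb2 and from -1.73 to -1.58 for Il5ra. Nothing in the labels says whether the replicate numbers pair the libraries. Same-numbered libraries deviated from their group means with correlations of 0.036, -0.134 and 0.00918, and not every library correlated best with its own number. With 3 libraries a group, such correlations cannot show whether the libraries were paired. With the replicate block 4122 genes were higher and 4263 lower, against 4219 and 4347 without it, and 9 receptor chains were called. The ligand genes called higher numbered 2 with no expression filter and 2 in DESeq2 (Il9 and Csf2), and 0 to 1 when a library was left out. JAK and STAT genes called lower numbered 3 to 5 when a library was left out, 5 of them without mLN replicate 3, where Stat5a was among those added. STAT6 targets called lower numbered 1 in DESeq2, where Mrc1 and Pparg were lost, and 1 to 3 when a library was left out, with 1 without uLN replicate 2 and 1 without mLN replicate 2. The cause of these differences was not tested. Il15 changed sign, to 0.00 with library totals only and to between -0.12 and 0.05 with a library left out (0.00 without uLN replicate 2, 0.05 without mLN replicate 1), with no call. Stat5b was called with other scaling factors (log2 change of 0.12 to 0.14). Depth limits Il13ra1, Il9, Csf2 and Il5, with at most 12 reads per library.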
